A study of Mus musculus with 13 samples.

Results

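Sialic acids are acidic sugars that usually cap the outer ends of the glycans on cell surface proteins and lipids. Cells build them from an activated amino sugar, join them to CMP in the nucleus, carry CMP-sialic acid into the Golgi, and there sialyltransferases place the sugar on galactose, on N-acetylgalactosamine or on another sialic acid. Sialidases remove it again, and free sialic acid leaves the lysosome through a transporter before it is cleaved or used again. On neutrophils, sialylated and fucosylated caps are parts of the selectin ligands that slow the cells on the vessel wall, and sialic acids are ligands of the Siglec receptors. Some small RNAs are also reported to carry sialylated glycans at the cell surface (glycoRNA), which is the subject of the series from which these libraries come.

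The genes described here are the 34 mouse genes of sialic acid synthesis, transfer and removal, out of 55536 genes in the deposited expression tables. They were chosen by name from their known function, by a rule that uses no measured value but with earlier results of these data known: 5 genes of synthesis, 2 transporters, 3 genes of breakdown and amino sugar salvage, 4 sialidases and the 20 sialyltransferases. The libraries were poly(A) RNA-seq of neutrophils isolated from the bone marrow of wild-type (WT) mice. In 2 libraries, exRNaseA 1 and 2, the cells had been exposed to RNase A in HBSS buffer for 10 min at 37 °C, a treatment meant to digest RNA outside the cell. In the other 2, mock 1 and 2, the treatment label is mock. The treatment protocol in the mock records names RNase A as well, word for word as in the exRNaseA records, so the groups rest on the title and treatment labels alone and the sources used here do not say what the mock cells received. All cells came from WT animals, and no transgene or deletion is named for either group. The sources used here do not state the strain, age, sex or number of the animals. Nothing says that the replicates came from separate animals, so the p-values below measure only the spread between these samples, which may be technical. The comparison of exRNaseA with mock asks whether digestion of RNA outside the cell is accompanied by a different level of cellular mRNA.

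The libraries held 20661683 to 23722494 expected counts, which are read counts that RSEM estimates per gene and that need not be whole. All 11 neutrophil markers stood at 1 TPM or more (TPM, a gene's scaled share of all transcripts, corrected for transcript length), led by S100a9 at 122860 TPM and S100a8 at 96743 TPM. Markers of other bone marrow cells were present too: all 10 B cell markers stood at 1 TPM or more, with Ighm at 1411 TPM, as did all 6 erythroid markers, with Hbb-bs at 1698 TPM, and 4 of 7 monocyte markers, with Ly6c2 at 965 TPM. Of the eosinophil, basophil and mast cell markers, 6 of 7 stood at 1 TPM or more, with Prg2 at 414 TPM. The same held for 8 of 9 T and NK cell markers, with Trac at 11.6 TPM, and 3 of 4 megakaryocyte markers, with Pf4 at 13.4 TPM. The stroma and endothelium list had 2 of 6 markers at 1 TPM or more, and Lepr had 0 counts. The summed B cell markers ran from 1866 to 1878 TPM in mock and from 1870 to 1881 TPM in exRNaseA, and the summed monocyte markers from 1010 to 1026 TPM and from 1006 to 1024 TPM. Some other sums did not overlap and were higher in exRNaseA. The erythroid markers stood at 2676 to 2718 TPM in mock and 2753 to 2779 TPM in exRNaseA. The neutrophil precursor markers, led by Mpo, stood at 860 to 866 and 898 to 909 TPM. The stem and progenitor markers, at 20.1 to 21.6 and 25.7 to 25.8 TPM, and the dendritic cell markers, at 4.62 to 5.28 and 5.70 TPM, were also apart. In the test on counts used below, the median log2 difference (exRNaseA minus mock) was 0.04 for the erythroid and 0.02 for the precursor markers. It was 0.10 for the stem and progenitor and -0.12 for the dendritic cell markers, and no gene of these lists passed. Of the other lists, the median was -0.17 for the T and NK cell and -0.23 for the megakaryocyte markers. For the eosinophil, basophil and mast cell markers it was -0.07, and for the B cell, monocyte and stroma lists 0.00, -0.01 and 0.03. Kit, the most abundant stem and progenitor marker, had a log2 difference of 0.09. In bulk RNA a level cannot be assigned to a cell type, and fewer cells of a type and less RNA per cell cannot be told apart. The part of these other cells in the levels and differences below was not tested.

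Of the 34 genes, 21 had a mean of 1 TPM or more over the 4 libraries, 12 had 10 TPM or more, and 2 had 100 TPM or more. Another 6 were above 0 and under 1 TPM, and 7 had 0 counts in every library. The coefficient of variation over the 4 libraries was 1.9% to 13.1% for the genes at 10 TPM or more, and 3.56% to 39.4% for the tested genes below that. Ranked by mean TPM, 15 of the 26 pairs of neighbours had ranges over the 4 libraries that did not overlap. Another RefSeq gene overlaps 18 of the 34, and reads in the shared stretch could be counted for either. Each mean below is over all 4 libraries, mock and exRNaseA together (SD, n = 4), and single values are listed in the order mock 1, mock 2, exRNaseA 1, exRNaseA 2.

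**Figure D1:**
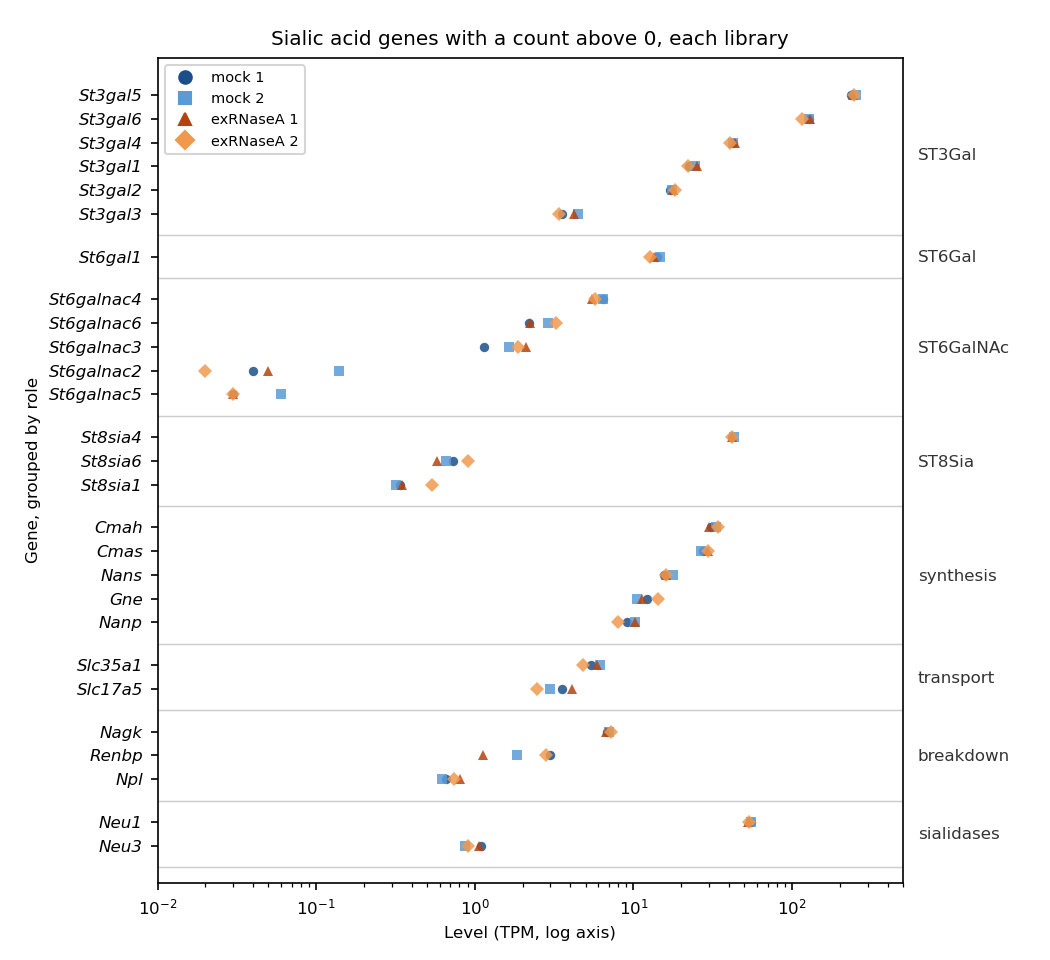
Level in TPM, on a log axis, of the members with a count above 0, grouped by role, with 1 symbol for each of the 4 libraries. St3gal5 and St3gal6 lie above 100 TPM in every library, and the 7 genes with 0 counts are not drawn.

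The synthesis genes were all expressed. Gne, whose product is both the epimerase that opens the pathway and the kinase of the next step, stood at 12.1, 10.5, 11.4 and 14.2 TPM (mean 12.0 ± 1.58, SD, n = 4), above 52.8% of the 14184 genes with enough counts to be tested. Nans, the synthase that makes the phosphorylated sialic acid, had 15.6, 17.7, 16.1 and 16.1 TPM (mean 16.4 ± 0.919, SD, n = 4). Nanp, the phosphatase that frees it, had 9.05, 10.2, 10.2 and 7.97 TPM (mean 9.35 ± 1.07, SD, n = 4). Nans exceeded Nanp 1.58 to 2.02-fold within a library. Cmas, which joins sialic acid to CMP, was higher at 27.5, 26.7, 29.5 and 29.4 TPM (mean 28.3 ± 1.41, SD, n = 4), 2.07 to 2.6 times Gne in the same library. The 2 exRNaseA values of Cmas were both above the 2 mock values. Cmah, the hydroxylase that turns CMP-Neu5Ac into CMP-Neu5Gc and that is inactive in humans, had 30.8, 33.1, 29.9 and 34.0 TPM (mean 32.0 ± 1.90, SD, n = 4). Its groups overlapped, and its level was 1.01 to 1.24 times that of Cmas. Cmas lies at chr6:142756686-142775714 and Cmah at chr13:24327404-24477289 (coordinates of the RefSeq table for GRCm38.p6, the assembly that mm10 names).

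Transport and breakdown genes were lower. Slc35a1, the Golgi transporter of CMP-sialic acid, had 5.42, 6.14, 5.91 and 4.81 TPM (mean 5.57 ± 0.589, SD, n = 4), and Cmas was 4.35 to 6.11 times as high per transcript length. Slc17a5, which encodes sialin, the lysosomal exporter of free sialic acid, had 3.56, 2.97, 4.09 and 2.45 TPM (mean 3.27 ± 0.712, SD, n = 4). In both genes the groups overlapped. Nagk, the kinase that salvages N-acetylglucosamine, had 6.81, 7.03, 6.69 and 7.25 TPM, while Renbp, an epimerase of amino sugars also known as the renin binding protein, had 2.96, 1.85, 1.13 and 2.83 TPM. Npl, the lyase that cleaves sialic acid, was low at 0.66, 0.62, 0.81 and 0.74 TPM, from 17, 14, 18 and 18 counts (67 in all). Npl stood above 9.6% of the tested genes, so the cleaving enzyme was measured from few reads and the salvage kinase from more.

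Among the sialidases, Neu1 carried nearly all of the reads. Neu1, the lysosomal sialidase, which works in a complex with cathepsin A, had 55.3, 55.0, 52.7 and 53.5 TPM (mean 54.1 ± 1.21, SD, n = 4), above 83.1% of the tested genes. Both exRNaseA libraries lay below both mock libraries. Neu1 exceeded Ctsa, the gene of cathepsin A, 1.15 to 1.46-fold within a library, a pair picked after the values were seen. Neu3, a membrane sialidase that prefers gangliosides, had 1.10, 0.87, 1.07 and 0.90 TPM from 192 counts in all, and Neu1 was 49.3 to 63.2 times as high. Neu2, the cytosolic sialidase, and Neu4 had 0 counts in all 4 libraries. A total of 3 counts over the 4 libraries would correspond to 0.0416 TPM for Neu2 and 0.0166 TPM for Neu4, which are the limits that a count of 0 allows, for counting error only. Neu1 lies at chr17:34931253-34937297.

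The 20 sialyltransferases fall into 4 families by the linkage they form. ST3Gal enzymes place sialic acid on galactose, ST6Gal enzymes place it at another position of galactose, ST6GalNAc enzymes act on N-acetylgalactosamine, and ST8Sia enzymes extend one sialic acid with another. Of the 20 genes, 11 stood at 1 TPM or more: all 6 ST3Gal genes, 1 of 2 ST6Gal genes, 3 of 6 ST6GalNAc genes and 1 of 6 ST8Sia genes. The summed level of the 20 genes was 513, 536, 530 and 514 TPM. ST3Gal transcripts made up 87.1%, 86.9%, 87.5% and 87.0% of that sum (mean 87.1% ± 0.266, SD, n = 4), ST8Sia 8.25% ± 0.135, ST6Gal 2.62% ± 0.134 and ST6GalNAc 2.0% ± 0.126. The order of the 4 families was the same in each library. These shares rest on St3gal5: without it in both sum and family, ST3Gal made up 75.9% and ST8Sia 15.5%. A share of transcripts is not a share of enzyme activity, which was not measured.

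**Figure D2:**
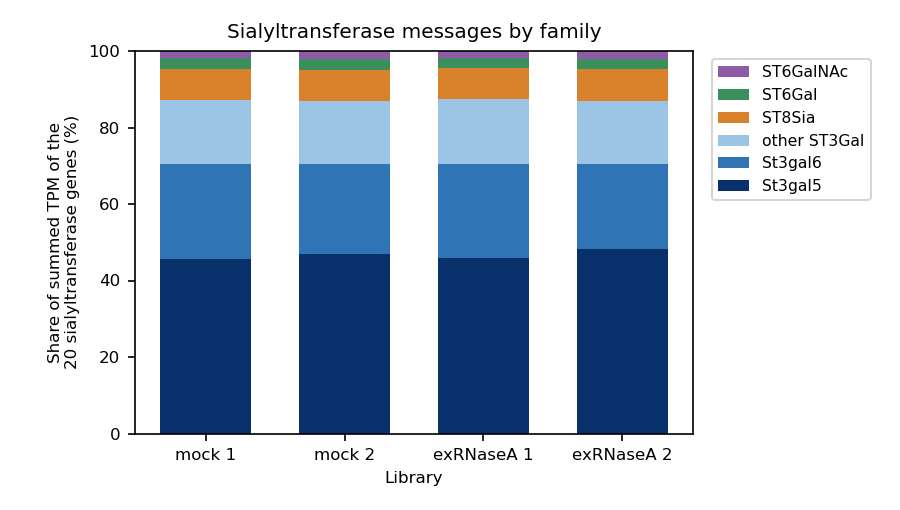
Share of the summed TPM of the 20 sialyltransferase genes in percent, with 1 stacked bar for each library; ST3Gal is drawn in 3 blues for St3gal5, St3gal6 and its other genes. The blues together take 86.9% to 87.5% in the 4 libraries.

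St3gal5 was the highest of the 34 genes. It encodes GM3 synthase, which puts sialic acid on lactosylceramide and so opens the synthesis of most gangliosides. Its level was 234, 251, 243 and 247 TPM (mean 244 ± 7.46, SD, n = 4), above 96.5% of the tested genes, and it alone made up 46.6% ± 1.17 (SD, n = 4) of the sialyltransferase sum. St3gal6, which acts on the galactose of N-acetyllactosamine chains and contributes to selectin ligands, had 128, 127, 130 and 115 TPM (mean 125 ± 6.88, SD, n = 4). No other member overlapped the range of either gene, and St3gal5 was 1.83 to 2.16 times St3gal6. The groups of both overlapped in TPM. St3gal5 lies at chr6:72097552-72154571 and St3gal6 at chr16:58469742-58524260, where it overlaps the annotated gene Dcbld2.

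The other ST3Gal genes spanned a wide range. St3gal4, the other main enzyme of leukocyte selectin ligands, had 42.3, 42.2, 43.9 and 40.8 TPM (mean 42.3 ± 1.27, SD, n = 4). St3gal1, which caps core 1 O-glycans, had 22.3, 24.4, 25.1 and 22.2 TPM (mean 23.5 ± 1.48, SD, n = 4). St3gal2, which acts on O-glycans and on gangliosides, had 16.9, 17.4, 17.7 and 18.3 TPM (mean 17.6 ± 0.599, SD, n = 4). The exRNaseA values of St3gal2 were both above its mock values, and the groups of the other 2 genes overlapped in TPM. St3gal3, which acts on glycoproteins, was the lowest of the family at 3.56, 4.47, 4.21 and 3.41 TPM (mean 3.91 ± 0.509, SD, n = 4).

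St6gal1 was the one ST6Gal gene detected. It caps the galactose of N-glycans, including the glycans bound by CD22, a receptor on B cells. Its level was 14.0, 14.6, 13.4 and 12.7 TPM (mean 13.7 ± 0.821, SD, n = 4), and St3gal5 was 16.6 to 19.5 times as high. Both exRNaseA libraries were below both mock libraries. St6gal2 had 0 counts, with a limit of 0.0192 TPM. St6gal1 lies at chr16:23224729-23360350 and overlaps 2 annotated non-coding genes.

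The ST6GalNAc genes were low. St6galnac4, which adds a further sialic acid to sialylated core 1 O-glycans, had 6.39, 6.46, 5.50 and 5.69 TPM (mean 6.01 ± 0.486, SD, n = 4). St6galnac6, which acts on gangliosides, had 2.18, 2.90, 2.23 and 3.26 TPM, and St6galnac3 had 1.15, 1.64, 2.09 and 1.88 TPM. In TPM, both exRNaseA values lay below both mock values for St6galnac4 and above them for St6galnac3, and in CPM (counts scaled to library size, not per length) the groups of both overlapped. St6galnac4 and St6galnac6 are neighbours on chromosome 2 with 12 bases between their annotated spans, so reads at the junction could be counted for either. The expected counts of St6galnac4 were whole in every library, and those of St6galnac6 were not whole in 2. The sources used here do not say whether counting used strand, and the assignment of reads at the junction was not tested. St6galnac2 had 11 and St6galnac5 13 counts in all, and St6galnac1 had 0.

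In the ST8Sia family, St8sia4 stood apart. It is a polysialyltransferase, which builds long chains of sialic acid on a few carrier proteins such as NCAM and neuropilin. Its level was 41.5, 43.2, 41.9 and 41.7 TPM (mean 42.1 ± 0.799, SD, n = 4), and its ratio to St3gal4 was 0.977 to 1.05, so the levels of these 2 genes did not differ beyond their spread. St8sia4 lies at chr1:95587682-95667717. Of the listed carrier genes, Ccr7 was measured at 20.5 TPM, Ncam1 at 19.5 TPM and Nrp2 at 0.445 TPM. St8sia6, which makes short chains, had 0.73, 0.66, 0.58 and 0.91 TPM from 250 counts in all, and St8sia4 was 45.8 to 72.2 times as high. St8sia1, GD3 synthase, which acts on the product of St3gal5, had 0.34, 0.32, 0.35 and 0.54 TPM from 186 counts in all, so that St3gal5 was 458 to 784 times as high. St8sia2, the other polysialyltransferase, and St8sia3 and St8sia5 had 0 counts, with limits of 0.0168, 0.0221 and 0.0195 TPM.

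The sequence just before the transcription start was compared with these levels, since a promoter rich in CG dinucleotides is common among widely expressed genes. The RefSeq promoter table (GRCm38.p6) held 25 of the 34 genes with 32 promoters, and CG was counted in the 250 bases before each start. The median was 12 CG for the 22 promoters of genes at 1 TPM or more (range 1 to 25) and 8.5 for the 10 promoters of genes under 1 TPM (range 0 to 30). These medians are per promoter and not per gene: the 22 came from 17 genes and the 10 from 8. Among the 10, Neu2 alone gave the values 0, 5 and 1, so the lower median leans on 1 gene and the 2 medians cannot be read as a difference between genes. Over all 32851 promoters of the table it was 6, with 15 for the 12520 of tested genes and 3 for the 20331 of other genes. That split is by testing and not at 1 TPM: Neu3, St8sia6, Npl and St8sia1 were under 1 TPM and tested. The ranges of the expressed and the low genes overlapped: St8sia6 had 30 CG at 0.72 TPM, and Cmah had 3 and 2 CG in its 2 promoters at 32.0 TPM. The motif TATAAA, searched on both strands, was found in 2 of the 32 promoters and in 12.4% of all promoters. The 4 windows printed here were chosen after the values were seen and hold no other annotated gene: Cmah and Cmas are similarly expressed, Npl is low and Neu4 is at 0 counts. They are chr13:24327154-24327403 on the plus strand for Cmah (3 CG), chr6:142756436-142756685 on the plus strand for Cmas (11 CG), chr1:153549715-153549964 on the minus strand for Npl (15 CG) and chr1:94020243-94020492 on the plus strand for Neu4 (5 CG). Each is written 5′ to 3′ with every CG in capitals.
Cmah: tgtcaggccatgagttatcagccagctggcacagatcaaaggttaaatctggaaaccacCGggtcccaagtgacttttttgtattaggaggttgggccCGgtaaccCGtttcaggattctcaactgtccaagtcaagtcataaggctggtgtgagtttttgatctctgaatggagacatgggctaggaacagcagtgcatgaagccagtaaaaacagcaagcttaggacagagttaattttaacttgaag
Cmas: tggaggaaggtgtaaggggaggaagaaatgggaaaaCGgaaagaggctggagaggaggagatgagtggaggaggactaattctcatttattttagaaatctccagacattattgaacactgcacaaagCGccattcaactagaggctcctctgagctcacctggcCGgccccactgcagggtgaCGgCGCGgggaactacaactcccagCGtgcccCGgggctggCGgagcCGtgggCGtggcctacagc
Npl: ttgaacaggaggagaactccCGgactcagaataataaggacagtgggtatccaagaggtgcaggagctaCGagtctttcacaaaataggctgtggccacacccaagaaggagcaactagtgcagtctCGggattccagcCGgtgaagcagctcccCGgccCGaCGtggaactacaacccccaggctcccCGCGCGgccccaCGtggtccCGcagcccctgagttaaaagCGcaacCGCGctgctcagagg
Neu4: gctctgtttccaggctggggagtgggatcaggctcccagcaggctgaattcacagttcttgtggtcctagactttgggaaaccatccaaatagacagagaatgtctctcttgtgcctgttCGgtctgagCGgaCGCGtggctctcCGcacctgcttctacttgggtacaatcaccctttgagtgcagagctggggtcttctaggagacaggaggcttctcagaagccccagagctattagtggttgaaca

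After exposure to RNase A, none of the genes passed the test. Of the 34, 25 had enough counts to be tested, and with p-values adjusted by Benjamini-Hochberg over all 14184 tested genes the quasi-likelihood test of edgeR called 0 of the 25, against 0.0917% of all tested genes (13 genes). The lowest adjusted p among the 25 was 0.699. At an unadjusted p under 0.05 the same test held 1 of the 25, St6gal1, against 6.35% of all tested genes, and DESeq2 on the same 25 called 0 and held 0 at an unadjusted p under 0.05. So did limma on log2(TPM + 0.5), which tested the 21 at 1 TPM or more and not Neu3, St8sia6, Npl or St8sia1. The 13 calls over all genes became 74 without mock 1, 59 without exRNaseA 1 and 29 without exRNaseA 2, and 0 of the 25 was called without any 1 of the 4 libraries.

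The log2 differences, exRNaseA minus mock, ran from -0.33 to 0.23 over the 25 genes, with 16 below and 9 above 0. Their median was -0.02, beside 0.00 over all tested genes, and their median size was 0.05, beside 0.07. In CPM, both exRNaseA libraries were above both mock libraries for 4 of the 25 (Cmas, St3gal2, Npl and St8sia1), against 17.7% of all tested genes. Both were below for 7 (St3gal5, Neu1, St3gal4, St8sia4, St6gal1, St3gal3 and St8sia6), against 18.0%. Together these are 11 of 25 genes whose groups did not overlap, against 35.7% of all tested genes, and with 2 against 2 libraries the exact permutation test of a single gene cannot go below 0.333. Of the 11, 6 did not overlap in TPM either, and the other 5 overlapped in TPM. Another 2 genes, St6galnac4 and St6galnac3, were apart in TPM only. The share of all tested genes apart in TPM was not computed, so these counts in TPM have no background beside them. Over the same libraries, the 11 neutrophil markers had a median log2 difference of -0.05. By edgeR, 9 had an unadjusted p under 0.05, against 6.35% of all tested genes, and 0 were called, with a lowest adjusted p of 0.288. In CPM both exRNaseA libraries were below both mock libraries for 8 of the 11, against 18.0% of all tested genes. They were above for 1, against 17.7%. The summed levels of the 11 neutrophil markers were 278253 to 279119 TPM in mock and 266363 to 279535 TPM in exRNaseA. The part of neutrophil content in the differences of the 25 genes was not tested.

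**Figure D3:**
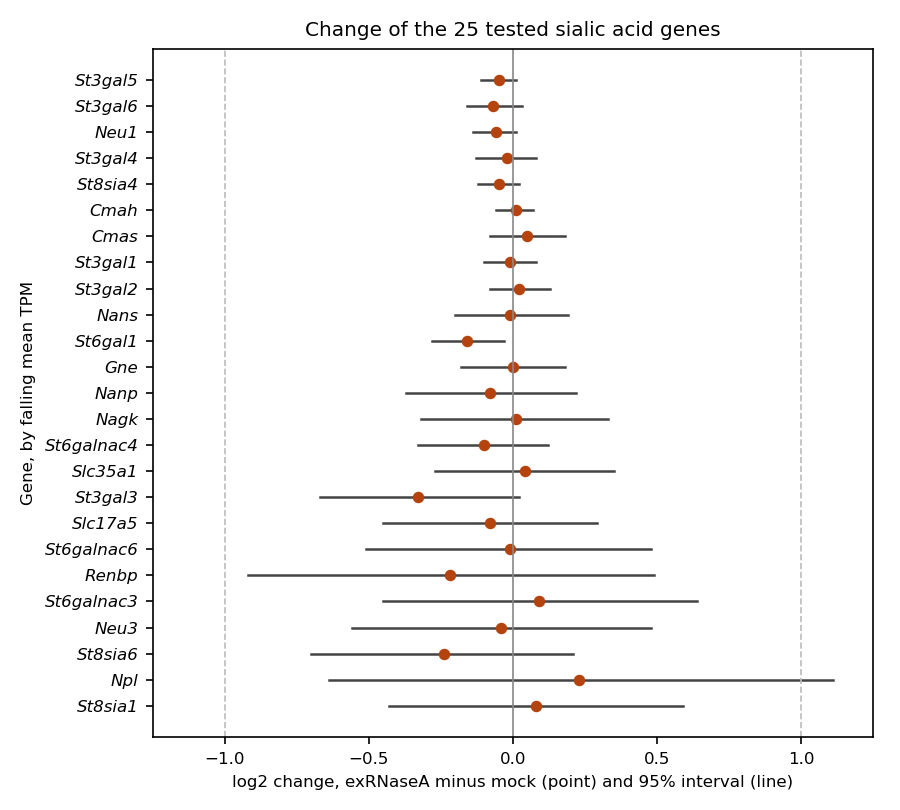
Log2 difference, exRNaseA minus mock, of the 25 tested genes with the 95% interval of edgeR's fit as a line, genes ordered by falling mean TPM and dashed lines at -1 and 1. All estimates lie between -0.33 and 0.23, and the interval of St6gal1 is the one that does not include 0.

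St6gal1 was nearest to the threshold. Its CPM values were 40.7 and 42.3 in mock and 38.5 and 36.0 in exRNaseA. The log2 difference was -0.16 (SE 0.06, 95% interval -0.28 to -0.03), with an unadjusted p of 0.0149 and an adjusted p of 0.699 by edgeR's quasi-likelihood test. St3gal3 had the estimate farthest from 0: CPM of 5.14 and 6.88 in mock, 4.87 and 4.65 in exRNaseA, and a log2 difference of -0.33 (SE 0.16, 95% interval -0.67 to 0.02, adjusted p 0.781 by edgeR). Both genes were lower in both treated libraries in CPM and neither passed the test. In TPM the groups of St3gal3 overlapped. Its estimate, from 471 counts in all, was -0.53 without mock 1, -0.11 without mock 2 and -0.07 by limma on log2(TPM + 0.5).

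The abundant genes had the tightest intervals. St3gal5, from 20795 counts, had a log2 difference of -0.05 (SE 0.03, 95% interval -0.11 to 0.01). St8sia4, from 14063 counts, had -0.05 (SE 0.03, 95% interval -0.12 to 0.02). Neu1, from 10173 counts, had -0.06 (SE 0.03, 95% interval -0.14 to 0.01). For these 3 genes the treated libraries were lower in CPM and each interval included 0. Cmah, from 14425 counts, had 0.01 (95% interval -0.06 to 0.07), and St3gal6 had -0.07 (95% interval -0.16 to 0.03). Cmas, the synthesis gene whose groups were apart, had 0.05 (95% interval -0.08 to 0.18), and Gne, at the head of the pathway, had 0.00 (95% interval -0.18 to 0.18). At the other end, Npl had 0.23 with an interval from -0.64 to 1.11, which does not bound a doubling of its level.

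The intervals set what these libraries could show. For 11 of the 25 genes the 95% interval lay within 0.2 log2 units on either side of 0, for 17 within 0.5 and for 24 within 1. Over all tested genes the shares within those bounds were 36.1%, 67.1% and 85.1%. Npl was the exception at the bound of 1. Counts were simulated from these libraries for exRNaseA against mock, with 13953 genes in the fit. In them edgeR called 33 of 49 genes changed 1.5-fold and 46 of 50 changed 2-fold. Some differences of 1.5-fold and of 2-fold were thus missed in the simulated counts. The simulated spread followed edgeR's trend over level, without a spread particular to each gene, and the changed genes were drawn at random. The shares called in real counts may therefore differ and were not tested.

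In the 7 lists of related genes, 55 of 59 genes were tested, 50 had 1 TPM or more, and edgeR called 0 of the 55, against 0.0917% of all tested genes. At an unadjusted p under 0.05 there were 3 of the 55, against 6.35% of all tested genes, a share near the background. The lowest adjusted p was 0.724 and the median log2 difference -0.02. DESeq2 called 0 of the 55 and limma on log2(TPM + 0.5) 0 of the 50 it tested. The list medians ran from -0.04 in the lysosomal list to 0.13 in the O-acetylation list, which holds 2 genes. Galnt10, which starts O-glycans, had a log2 difference of 0.19 (95% interval 0.03 to 0.35), and Ncam1 had 0.12 (95% interval 0.02 to 0.23). Hexa, a subunit of beta-hexosaminidase, had -0.08 (95% interval -0.16 to -0.01). None of these 3 genes passed the adjustment. Of the other lists, the smallest p belonged to Uap1 for the supply of UDP-N-acetylglucosamine (log2 difference 0.12), Mgat5 for the branches of N-glycans (0.07), Ugcg for the ganglioside core (0.07) and Siae for O-acetylation (0.26).

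Gfpt1, which opens the hexosamine route, had 27.6 TPM, near Cmas. Among the acceptor genes, B3gnt2, which extends N-acetyllactosamine chains, stood at 75.4 TPM, and the galactosyltransferase genes B4galt3 and B4galt1 at 52.1 and 44.0 TPM. For O-glycans, C1galt1, the core 1 galactosyltransferase, had 52.5 TPM and Gcnt1, which makes core 2 branches, had 51.5 TPM. Each of these 5 genes had a higher mean level, per transcript length, than St3gal4 at 42.3 TPM. The values of B4galt1, 43.0, 44.8, 43.5 and 44.6 TPM, overlapped the range of St3gal4, 40.8 to 43.9 TPM. In the ganglioside branch, Ugcg, the glucosylceramide synthase, had 65.9 TPM, and St3gal5 exceeded it 3.57 to 3.83-fold. B4galnt1, which extends GM3 towards the complex gangliosides, had 37.4 TPM, 72.8 to 116 times St8sia1, the gene of the competing step. Casd1, which O-acetylates sialic acid, had 23.2 TPM, and Siae, the esterase that removes the acetyl group, had 2.39 TPM. Of the lysosomal genes, Psap, the precursor of the saposins, had 411 TPM and Hexa 80.4 TPM.

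**Figure D4:**
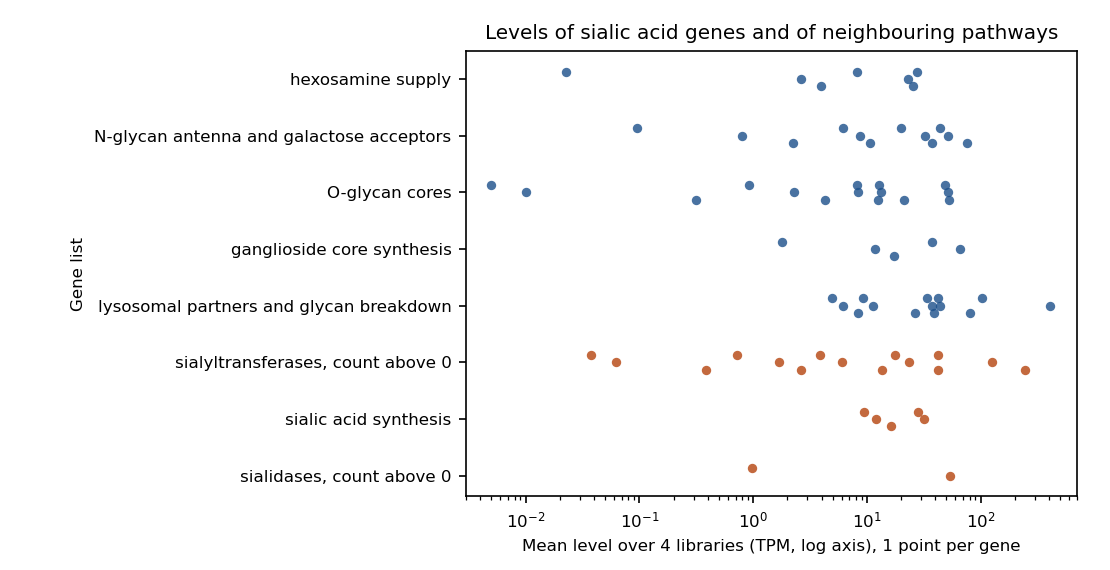
Mean level over the 4 libraries in TPM, on a log axis, with 1 point for each gene of 5 lists of related genes (blue) and of the sialyltransferases, synthesis genes and sialidases with a count above 0 (orange). Psap, at 411 TPM, is the one point of the related genes above St3gal5 at 244 TPM, and the 5 synthesis genes lie between 9.35 and 32.0 TPM.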

How the data were processed

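Poly(A) RNA-seq of mouse bone marrow neutrophils was deposited as RSEM tables per gene for 4 libraries, 2 mock and 2 exRNaseA, grouped by the title and treatment labels. Per the submitters' processing notes, STAR 2.4.2a, RSEM 1.3.3 and mm10 were used. Neither annotation release nor strand setting was given. The deposited expected counts are RSEM's estimates per gene, not normalized, and 8.5% to 8.91% of genes per library held a value that was not whole, so RSEM had split reads between genes. The deposited TPM values were taken as the level per transcript length, and the deposited FPKM values served as an alternative. A small RNA table was not used.

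Expected counts were rounded and tested with edgeR 4.0.16 (filterByExpr, TMM scaling, quasi-likelihood F test, Benjamini-Hochberg adjustment over 14184 genes, threshold 0.05), in R 4.3.3, and the SE and 95% interval come from the same fit. Alternatives were DESeq2 1.42.0, limma 3.58.1 on log2(TPM + 0.5), log2(TPM + 0.1) and log2(FPKM + 0.5), other scalings and filters, a replicate block and leaving out each library. Replicates differed by more than sampling noise (chi-square per degree of freedom 2.00 in mock and 2.47 in exRNaseA) and were counted separately. The fit was tested on simulated data.

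By rule, members with a mean of 1 TPM or more were given with their value in each library and the others by name with their summed count. Of each related list the most abundant 3 and the gene with the smallest p could be named, and of each marker list the most abundant 3. The members and the lists were chosen with earlier results of these data known. St6galnac2 has 2 identifiers, and the one with counts was used. In each of the 11 marker lists edgeR called 0 genes.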

Additional observations from a re-analysis of the deposited data

How the results depend on the processing

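The count of called members was 0 under every alternative run, with a lowest adjusted p of 0.349 (edgeR, without exRNaseA replicate 1). The count over all genes, 13, became 8 with DESeq2, 149 without a filter on low counts, 7 with a filter at 10 CPM in 2 libraries, 7 with limma on log2(TPM + 0.5), 7 on log2(FPKM + 0.5), 8 on log2(TPM + 0.1) and 0 on log2(TPM + 0.5) with no minimum. Leaving out 1 library gave 9 to 74. With a replicate block it was 55, with 0 members called and a lowest adjusted p of 0.484. The sources used here do not say whether same-numbered libraries were paired. Deviations of same-numbered libraries had a correlation of 0.047 over 7828 genes. These deviations include sampling noise, so the correlation cannot decide whether the libraries were paired. The median log2 difference of the members was -0.06 to 0.00 without 1 library.

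Members at 1 TPM or more numbered 20 to 24 with minimums of 2 and 0.5 TPM. Without St3gal5 the shares were 75.9% for ST3Gal, 15.5% for ST8Sia, 4.90% for ST6Gal and 3.74% for ST6GalNAc. From counts over gene length they were 86.1% for ST3Gal, 9.02% for ST8Sia and 2.83% for ST6Gal, and over genes at 1 TPM or more ST8Sia was 8.06%. Without 1 library they were 87.0% to 87.2%, 8.21% to 8.31%, 2.58% to 2.67% and 1.95% to 2.04% for ST3Gal, ST8Sia, ST6Gal and ST6GalNAc.

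Of 25 members, 10 kept the sign of their log2 difference under every alternative run, and 54 of 326 values changed sign, none of them called. Not every alternative held all 25 members: the filter at 10 CPM tested 13, and limma with a minimum level tested 21. Npl and St8sia1, which kept their sign, were in neither, so they had fewer alternatives in which to change sign. DESeq2 and the replicate block each gave 0.00 for Gne. Total count scaling gave 0.01 for St3gal1 and Nans and 0.00 for St6galnac6. On log2(TPM + 0.5), St3gal5 was 0.02, St3gal4 0.00, Cmah 0.00, St3gal1 0.02, Slc35a1 -0.10 and St6galnac6 0.09, and the same 6 on log2(TPM + 0.1) were 0.02, 0.00, 0.00, 0.02, -0.11 and 0.10. With no minimum they were 0.02, 0.00, 0.00, 0.02, -0.10 and 0.09, with Neu3 0.00 and St8sia6 0.05. On log2(FPKM + 0.5), St3gal5, St3gal1 and Nagk were 0.00, Cmah -0.02, Slc35a1 -0.12 and St6galnac6 0.07. Without 1 library the ranges were 0.00 to 0.01 for Cmah, -0.08 to 0.07 for Gne, -0.06 to 0.07 for Nagk, -0.27 to 0.10 for Nanp, -0.04 to 0.03 for Nans, -0.19 to 0.15 for Neu3, -0.95 to 0.25 for Renbp, -0.37 to 0.18 for Slc17a5, -0.07 to 0.15 for Slc35a1, -0.05 to 0.04 for St3gal1, -0.16 to 0.37 for St6galnac3 and -0.31 to 0.33 for St6galnac6. The cause of these reversals was not tested. Of the 25 members, 7 had under 100 counts in every library.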
